A study of Mus musculus with 6 samples.

Results

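The epidermal growth factor (EGF) family and its ErbB receptors were examined at the level of their transcripts in infarcted mouse hearts with and without Zeb2 in the cardiomyocytes. The 9 genes were taken by name from the 38293 genes of the count table: the neuregulins Nrg1, Nrg2 and Nrg4, the EGF-like ligands Hbegf and Btc, and the receptors Egfr, Erbb2, Erbb3 and Erbb4. Each name matched 1 gene identifier.

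RNA-seq was performed on heart tissue of Zeb2 fl/fl mice (3 libraries), which carry the floxed allele of Zeb2 and which the labels call WT, and of Zeb2 cKO mice (3 libraries), which carry the same floxed allele together with a Cre recombinase under the murine Myh6 promoter, so that the deletion is limited to cardiomyocytes. All were adult mice of a backcrossed C57BL/6J strain with a permanent occlusion of the LAD artery 14 days before collection. The labels name the border region of the infarct as the tissue site, whereas the methods of the study name the remote zone. The libraries measure all cells of the tissue, so a lower level of a transcript can come from fewer cells that express it or from less of it per cell, and the counts cannot tell these apart.

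ErbB receptors are tyrosine kinases that signal in pairs. Egfr binds EGF-like ligands such as heparin-binding EGF-like growth factor (Hbegf) and betacellulin (Btc), Erbb4 binds neuregulins as well as Hbegf and Btc, and Erbb3 binds neuregulins but has an impaired kinase. Erbb2 has no known ligand and acts as the preferred partner of the other receptors. In the heart, Nrg1 released by endothelial and endocardial cells acts on Erbb4 and Erbb2 of cardiomyocytes, a route needed for trabeculation of the embryonic ventricle and for the maintenance of adult myocardium, and Nrg4 is best known as a factor secreted by brown fat.

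Because ZEB2 is a repressor or activator that binds DNA through the core CACCT, often within the E-box CACCTG, the 250 bases before the transcription start were read for the members with a RefSeq promoter sequence. Sequences of build GRCm38.p6 were matched for 5 members. The core, searched as CACCT and AGGTG, was present in 4 of them (Egfr, Erbb4, Btc and Nrg4) and in 46.0% of all 32851 promoters of this length, and the E-box, searched as CACCTG and CAGGTG and containing the core, was present in Btc alone and in 17.2% of all promoters. The promoters of Egfr and Erbb4 are shown as those of the receptors whose levels lay on opposite sides of the other libraries in Zeb2 fl/fl replicate 2, and that of Btc as the 1 with an E-box. They are written 5′ to 3′ along the gene's strand, with matches to either motif in capitals, from chr11:16751953-16752202 (plus strand), chr1:69108060-69108309 (minus strand) and chr5:91402995-91403244 (minus strand).
Egfr: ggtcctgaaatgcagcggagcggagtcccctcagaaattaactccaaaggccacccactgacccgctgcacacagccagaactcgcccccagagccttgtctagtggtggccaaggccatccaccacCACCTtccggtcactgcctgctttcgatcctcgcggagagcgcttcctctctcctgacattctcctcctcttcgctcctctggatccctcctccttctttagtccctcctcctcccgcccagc
Erbb4: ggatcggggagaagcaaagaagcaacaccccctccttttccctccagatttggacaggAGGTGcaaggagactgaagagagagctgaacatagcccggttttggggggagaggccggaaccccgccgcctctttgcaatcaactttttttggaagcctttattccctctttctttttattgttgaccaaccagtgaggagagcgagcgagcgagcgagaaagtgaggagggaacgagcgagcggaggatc
Btc: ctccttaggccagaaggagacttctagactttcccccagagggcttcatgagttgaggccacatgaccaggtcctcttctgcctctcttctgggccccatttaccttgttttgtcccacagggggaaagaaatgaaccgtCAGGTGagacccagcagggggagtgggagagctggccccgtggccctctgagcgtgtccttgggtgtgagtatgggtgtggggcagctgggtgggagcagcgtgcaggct
These matches describe the letters of the window only, and binding of ZEB2 was not measured in these data.

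Total counts ran from 37288174 to 51136331 per library, of which 60.5% to 67.0% fell on the 37 mitochondrially encoded genes, which left 14301225 to 19024394 counts for the rest. Marker genes of cardiomyocytes summed to 31613 to 62264 CPM, where CPM is the count scaled to a common library size (TMM, edgeR). Zeb2 itself, listed by replicate from 1 to 3 as are all values that follow, measured 61.3, 116.05 and 71.9 CPM in Zeb2 fl/fl and 59.6, 72.6 and 66.5 CPM in Zeb2 cKO hearts (log2 fold change -0.33, adjusted p = 0.957 from edgeR, and -0.0058 without Zeb2 fl/fl replicate 2), so that the libraries of the genotypes overlapped for the deleted gene. The paper reports the loss from cardiomyocytes by qPCR and immunofluorescence, and it also shows ZEB2 in macrophages and immune cells. Counts of whole tissue do not test the loss in cardiomyocytes. Zeb2 fl/fl replicate 2 stood apart from the other 5 libraries: its 8 fibroblast markers summed to 8582 CPM against 1486 to 2124, its 8 macrophage markers to 814 CPM against 203 to 285, and its 8 cardiomyocyte markers to 31613 CPM against 51314 to 62264. It was the highest of the 6 libraries in 35.2% and the lowest in 34.6% of the 14746 genes tested. Fold changes of the members are given with and without it.

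Genes were placed on mouse build GRCm38 with the Gencode M21 annotation, and all 9 are protein coding. Nrg1 (ENSMUSG00000062991) spans chromosome 8 from 31814551 to 32884029 on the minus strand, and Erbb4 (ENSMUSG00000062209) spans chromosome 1 from 68032186 to 69108059 on the minus strand. Egfr (ENSMUSG00000020122, 16752203 to 16918158) and Erbb2 (ENSMUSG00000062312, 98412470 to 98437716) both lie on the plus strand of chromosome 11, and Erbb3 (ENSMUSG00000018166) lies on the minus strand of chromosome 10 from 128567523 to 128589652. Hbegf (ENSMUSG00000024486, 36504927 to 36515805) and Nrg2 (ENSMUSG00000060275, 36017652 to 36197380) both lie on the minus strand of chromosome 18. Nrg4 (ENSMUSG00000032311) is found on the minus strand of chromosome 9 from 55220222 to 55326844 and Btc (ENSMUSG00000082361) on the minus strand of chromosome 5 from 91357261 to 91402994. Exons of other genes on the opposite strand overlap 545 exon bases of Nrg4 (Fbxo22 and Gm15625), 482 of Nrg1 (Gm26578) and 9 of Erbb2 (Mien1), and since the strand setting of the count is not stated the counts of Nrg4 and Nrg1 are uncertain to that extent. Sequence shared with another gene, over 75 bases or more at an identity of 95% or more, made up 9.64% of the longest Nrg4, 1.85% of the longest Nrg1 and 0.980% of the longest Egfr transcript, and none were found in the other 6 genes. For Nrg4 and Nrg1 the other gene was Fbxo22 and Gm26578, which also overlap them on the opposite strand. These stretches may therefore be that overlap rather than copies elsewhere.

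The 9 transcripts were all detected, and they covered a wide range of levels. Compared per length, as CPM per kilobase of annotated exon averaged over the 6 libraries, Hbegf was the highest (2.23, range 1.69 to 3.23). It was followed by Egfr (1.82, range 1.35 to 3.56), Erbb3 (1.6, range 0.879 to 2.10), Erbb2 (1.078, range 1.00 to 1.17) and Erbb4 (1.03, range 0.599 to 1.58). The ranges of each of these 5 overlapped that of the next, and their order was not that of every library: Hbegf exceeded Egfr in 5 of the 6, Egfr exceeded Erbb3 in 2, Erbb3 exceeded Erbb2 in 5 and Erbb2 exceeded Erbb4 in 3. The mean of Egfr includes 3.56 in Zeb2 fl/fl replicate 2, and its other libraries lay between 1.35 and 1.67. Every library of Erbb4 was above every library of Btc (0.291, range 0.247 to 0.389). Nrg1 (0.260, range 0.110 to 0.859) overlapped Btc and also Erbb4. It was above Erbb4 in Zeb2 fl/fl replicate 2 (0.859 against 0.599) and below it in the other libraries. Nrg4 (0.101, range 0.0638 to 0.149) overlapped Nrg1 but lay above Nrg2 (0.0203, range 0.00593 to 0.0581) in all 6 libraries. With the longest transcript as the length, which shortens Nrg1 from 10.351 to 5.415 kb, Nrg1 and Btc changed places. Nrg1 overlapped Erbb4 with either length.

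**Figure D1:**
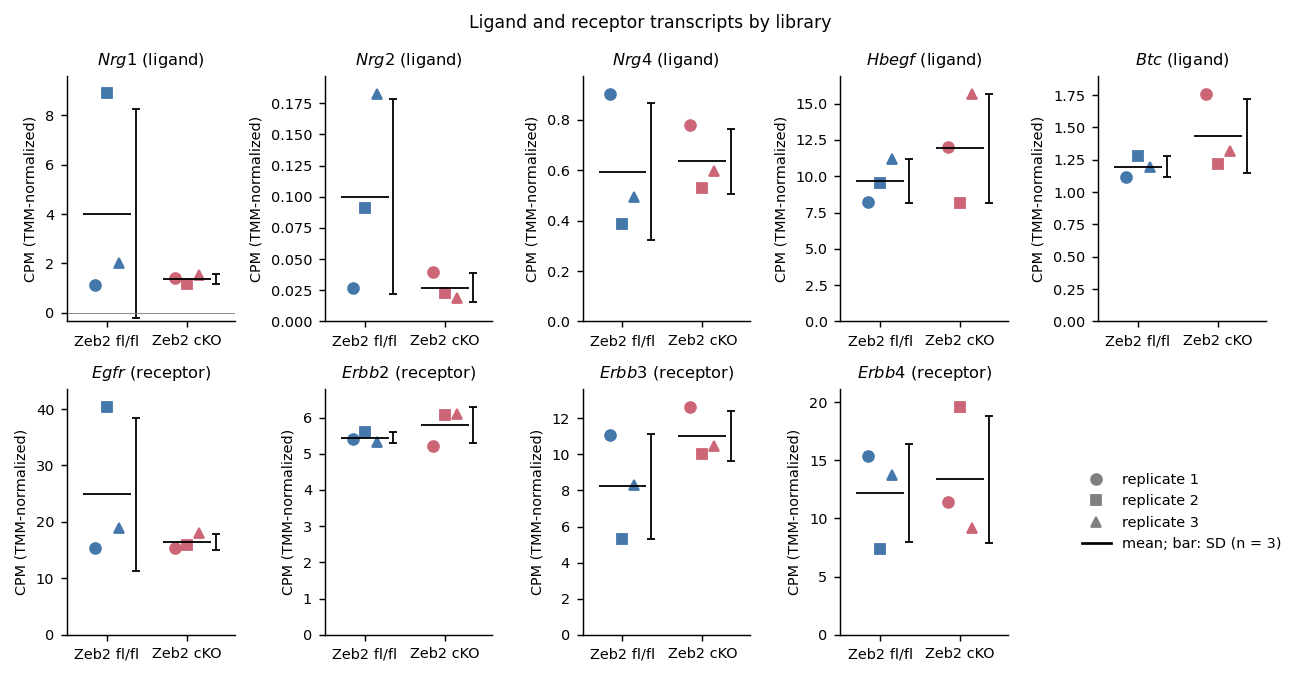
Each panel plots the TMM-normalized CPM of 1 gene in the 3 Zeb2 fl/fl (blue) and 3 Zeb2 cKO (red) libraries, with symbols for the replicate number, a line at the mean and a bar of 1 SD. The square of Zeb2 fl/fl replicate 2 stands above the other 5 libraries for Nrg1 (8.89 CPM) and Egfr (40.3 CPM) and below them for Nrg4, Erbb3 and Erbb4, and the 2 genotypes overlap in all 9 panels.

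Deletion of Zeb2 in cardiomyocytes was compared with the control for each gene with the quasi-likelihood test of edgeR, and p was adjusted by the Benjamini-Hochberg method over the 14746 genes that passed a filter on low counts. Of the 9 genes, 8 passed this filter and Nrg2 did not. None of the 8 had an adjusted p under 0.05, as was the case for 0% of all genes tested. At an unadjusted p under 0.05, edgeR gave 0 of the 8 members (1.9% of all genes), and DESeq2 gave Nrg1 (2.45% of all genes) and no member after adjustment (0.0136% of all genes). Without Zeb2 fl/fl replicate 2 edgeR likewise gave 0 of the 8 at an unadjusted p under 0.05 (2.63% of all genes). In 0 of the 9 genes did all libraries of one genotype lie above all of the other, which 6.36% of the genes tested did. The median log2 fold change of Zeb2 cKO over Zeb2 fl/fl was 0.12 for the 8 members and -0.0069 for all genes. Of the members, 3 were over 0.2 (15.9% of all genes) and 2 were under -0.2 (22.6% of all genes). Without Zeb2 fl/fl replicate 2, 2 were over 0.2 (14.2%) and 1 was under -0.2 (11.7%), and the medians were 0.026 and 0.0025.

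**Figure D2:**
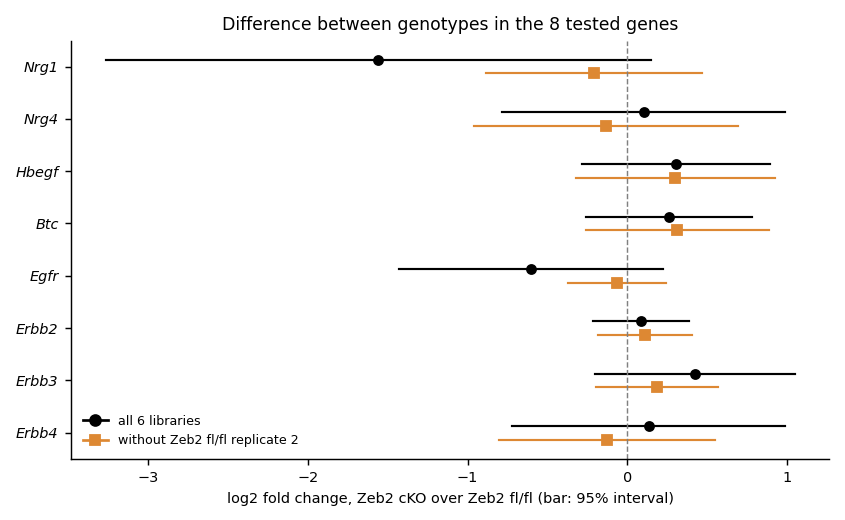
The log2 fold change of Zeb2 cKO over Zeb2 fl/fl is plotted for the 8 tested genes with its 95% interval from edgeR, for all 6 libraries (black circles) and without Zeb2 fl/fl replicate 2 (orange squares). Every interval includes 0, and the estimate of Nrg1 goes from -1.56 to -0.21 and that of Egfr from -0.60 to -0.061 without that library.

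Among the ligands, the coefficient of variation over the 6 libraries was largest for Nrg1 (113%) and Nrg2. For Nrg1 it came largely from 1 library, and Nrg2 had only 1 to 7 reads per library. That of Nrg4 (31.2%, 17 to 39 counts) was close to that of Hbegf (26.3%, 309 to 840 counts). Low counts add spread of their own, so these values do not set the neuregulins apart as a group. Nrg1 had 43, 390 and 78 counts in Zeb2 fl/fl hearts, or 1.14, 8.89 and 2.03 CPM (mean 4.02 ± 4.24, SD, n = 3). In Zeb2 cKO hearts it had 70, 50 and 83 counts, or 1.40, 1.15 and 1.54 CPM (mean 1.37 ± 0.198). A single library, Zeb2 fl/fl replicate 2, was high, at 6.35 times the median of the other 5, and the rest of the control libraries spanned those of the Zeb2 cKO hearts. On the log2 scale the difference was -1.56 (standard error 0.72, unadjusted p = 0.0676, adjusted p = 0.957), and an exact permutation test of the 6 values, which cannot go below 0.1 with 3 libraries against 3, gave a two-sided p of 0.4. Without that library the log2 fold change was -0.21 (95% interval -0.89 to 0.47). The fibroblast, macrophage and endocardial markers were also highest in that library, at 5.35, 3.17 and 1.77 times the median of the other 5 for their sums, whereas the sum of the 8 endothelial markers was lowest there (460 CPM against 550 to 654), with 5 of them at their lowest and 3 (Tek, Vwf and Emcn) at their highest, and the part of these cells in the level of Nrg1 was not tested.

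The genes whose pattern over the 6 libraries was most like that of Nrg1 were Aebp1, a gene of matrix-producing mesenchymal cells, Cd300c2, a receptor gene of the CD300 family of myeloid cells, and Slc2a13, a myo-inositol transporter gene. Likeness was the root mean square difference between log2 CPM values centred on each gene's mean, and it was 0.11, 0.13 and 0.13 on the log2 scale for the 3 genes. Aebp1 was at 53.7 CPM and Cd300c2 at 7.41 CPM in Zeb2 fl/fl replicate 2, against 7.74 to 13.2 CPM and 0.899 to 1.56 CPM in the other libraries. Among the members, Egfr was closest to Nrg1, at rank 630 of 14745 genes, and Erbb3 was the farthest at rank 13912.

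Nrg2, the neuregulin best known from the nervous system, was near the limit of detection with 1, 4 and 7 reads counted in Zeb2 fl/fl and 2, 1 and 1 in Zeb2 cKO hearts. It did not pass the filter, and in the fit without a filter Zeb2 cKO differed by -1.76 on the log2 scale (standard error 0.87, unadjusted p = 0.0719 and adjusted p = 0.858 in edgeR).

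Nrg4 measured 0.903, 0.387 and 0.495 CPM in Zeb2 fl/fl (0.595 ± 0.272, SD, n = 3) and 0.779, 0.530 and 0.596 CPM in Zeb2 cKO hearts (0.635 ± 0.129), from 17 to 39 counts per library. The controls held both the highest and the lowest of the 6 values. Its log2 fold change of 0.10 (95% interval -0.78 to 0.99) was -0.13 without Zeb2 fl/fl replicate 2, -0.010 without Zeb2 fl/fl replicate 3 and -0.071 without Zeb2 cKO replicate 1. The 8 adipocyte markers summed to 129 to 183 CPM in Zeb2 fl/fl and 167 to 222 CPM in Zeb2 cKO hearts. Nearly all of this sum came from 1 gene, Fabp4 (mean 169.7 CPM over the 6 libraries), so it does not stand for the whole list. Ucp1, which defines brown fat, had at most 1 count per library and Lep at most 1. Low counts were found for Plin1 (1 to 2 in Zeb2 fl/fl, 3 to 13 in Zeb2 cKO), Adipoq (2 to 5 and 8 to 25), Cidec (2 to 3 and 10 to 23) and Cfd (9 to 25 and 25 to 83), and the part of fat cells in the level of Nrg4 was not tested.

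Hbegf, the ligand with the highest level per length, measured 8.20, 9.52 and 11.2 CPM in Zeb2 fl/fl (9.65 ± 1.51, SD, n = 3) and 11.99, 8.16 and 15.6 CPM in Zeb2 cKO hearts (11.9 ± 3.74). The Zeb2 cKO libraries included the lowest and the highest value, and Zeb2 fl/fl replicate 2 lay within the range of the others. Zeb2 cKO differed from Zeb2 fl/fl by 0.31 on the log2 scale (standard error 0.25, adjusted p = 0.957 from edgeR), by 0.30 without Zeb2 fl/fl replicate 2, by 0.062 without Zeb2 cKO replicate 3 and by 0.52 without Zeb2 cKO replicate 2 (unadjusted p = 0.0435 from edgeR). Btc measured 1.12, 1.28 and 1.198 CPM in Zeb2 fl/fl (1.196 ± 0.0805) and 1.76, 1.22 and 1.32 CPM in Zeb2 cKO hearts (1.43 ± 0.286). Its control libraries lay close together, and 2 of the 3 Zeb2 cKO libraries were above all of them while replicate 2 was not. For Btc the difference on that scale was 0.26 (standard error 0.22, adjusted p = 0.957 from edgeR), 0.31 without Zeb2 fl/fl replicate 2 and 0.088 without Zeb2 cKO replicate 1.

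Of the receptors, Egfr stood out in the same library as Nrg1. It measured 15.3, 40.3 and 19.0 CPM in Zeb2 fl/fl (24.9 ± 13.5, SD, n = 3) and 15.3, 15.9 and 17.96 CPM in Zeb2 cKO hearts (16.4 ± 1.39). Zeb2 fl/fl replicate 2 was at 2.54 times the median of the other 5 libraries, which stayed between 15.3 and 19.0 CPM. For Egfr the difference on the log2 scale was -0.60 (standard error 0.35, unadjusted p = 0.129, adjusted p = 0.957 from edgeR; exact permutation test, two-sided p = 0.4). Without that library it was -0.061 (95% interval -0.37 to 0.25). As for Nrg1, the fibroblast and macrophage markers were highest in the same library, and their part in the level of Egfr was not tested.

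Erbb2, the shared partner of the other receptors, was the steadiest of the 9 genes. It measured 5.42, 5.61 and 5.31 CPM in Zeb2 fl/fl (5.44 ± 0.149, SD, n = 3) and 5.22, 6.06 and 6.09 CPM in Zeb2 cKO hearts (5.79 ± 0.495), with 204 to 327 counts per library. Its coefficient of variation over the 6 libraries was 6.71%, where that of Btc, the next, was 17.4% and that of Nrg1 was 113%. In Zeb2 fl/fl replicate 2, where the cardiomyocyte markers summed to 0.552 times the median of the other libraries, Erbb2 was at 1.03 times its own median in those libraries. Between genotypes it differed by 0.088 on the log2 scale (adjusted p = 0.957 from edgeR), and its 95% interval of -0.21 to 0.39 was the narrowest of the 8 genes.

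Erbb3 measured 11.1, 5.29 and 8.31 CPM in Zeb2 fl/fl (8.23 ± 2.91, SD, n = 3) and 12.6, 10.02 and 10.4 CPM in Zeb2 cKO hearts (11.03 ± 1.39). Zeb2 fl/fl replicate 2 was the lowest, at 0.506 times the median of the other 5 libraries, and replicate 1 lay among the Zeb2 cKO libraries. For Erbb3 the difference on the log2 scale was 0.42 (standard error 0.26, unadjusted p = 0.154, adjusted p = 0.957 from edgeR), and 0.19 without Zeb2 fl/fl replicate 2 (95% interval -0.20 to 0.57). Without Zeb2 fl/fl replicate 1 it was 0.70 (unadjusted p = 0.0230, adjusted p = 0.596 from edgeR). In that setting 1134 of 15075 genes were at an unadjusted p under 0.05 in edgeR, against 280 of 14746 in the main fit. Erbb3 is needed by Schwann cells. Of the 8 Schwann cell and nerve markers, whose sum ran from 6.43 to 10.7 CPM in Zeb2 fl/fl and from 5.86 to 9.40 CPM in Zeb2 cKO libraries, Sox10 had 2 to 28 counts and Foxd3 1 to 8. Their sum was highest in the library in which Erbb3 was lowest, although Sox10 and Foxd3 were lowest there too, and the part of these cells in the level of Erbb3 was not tested.

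Erbb4, the receptor of neuregulins in cardiomyocytes, measured 15.4, 7.41 and 13.7 CPM in Zeb2 fl/fl (12.2 ± 4.22, SD, n = 3) and 11.4, 19.5 and 9.21 CPM in Zeb2 cKO hearts (13.4 ± 5.45). Values scattered within both genotypes, with the lowest library among the controls and the highest among the Zeb2 cKO hearts. Its log2 fold change of 0.13 (95% interval -0.72 to 0.99, adjusted p = 0.967 from edgeR) was -0.12 without Zeb2 fl/fl replicate 2 and -0.24 without Zeb2 cKO replicate 2. In Zeb2 fl/fl replicate 2 Erbb4 was at 0.539 times the median of the other 5 libraries and the sum of the cardiomyocyte markers, most of it from Ttn, at 0.552 times, with 7 of the 8 markers (not Myl2) at their lowest. In Zeb2 cKO replicate 2, where Erbb4 was highest, that sum was 54181 CPM. The part of the cardiomyocytes in the level of Erbb4 was not tested.

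**Figure D3:**
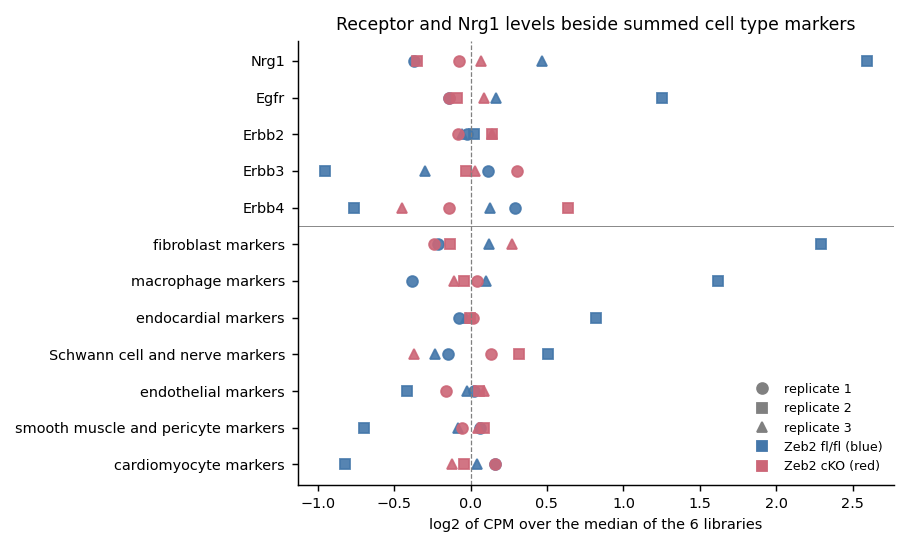
The log2 ratio of each library to the median of the 6 libraries is plotted for Nrg1 and the receptors (upper part) and for the summed CPM of marker lists of cell types (lower part), with blue for Zeb2 fl/fl, red for Zeb2 cKO and symbols for replicates. Zeb2 fl/fl replicate 2 is the highest library for Nrg1, Egfr and the fibroblast, macrophage, endocardial and Schwann cell lists, and the lowest for Erbb3, Erbb4 and the endothelial, smooth muscle and cardiomyocyte lists, while Erbb2 varies little.

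Shares of a summed level within a library do not depend on how the libraries were scaled. Egfr made up 24.7%, 58.2% and 32.3% of the receptor transcripts, as summed CPM per kilobase, in Zeb2 fl/fl hearts, and 25.2%, 24.1% and 30.3% of those in Zeb2 cKO hearts. Erbb2 made up 17.6% to 19.7% in Zeb2 fl/fl and 18.6% to 22.3% in Zeb2 cKO libraries. The share of Erbb3 was 33.6%, 14.4% and 26.6% in Zeb2 fl/fl and 39.03%, 28.7% and 33.2% in Zeb2 cKO hearts, and that of Erbb4 was 22.7%, 9.81% and 21.5% and 17.1%, 27.2% and 14.2%. The genotypes thus overlapped in the share of every receptor, and Zeb2 fl/fl replicate 2 lay outside the range of the other 5 libraries for all 4. The 4 shares are not independent, since they add up to the whole and the high share of Egfr lowers the rest. The level of Erbb2 in that library, 5.61 CPM, lay within the 5.22 to 6.09 CPM of the others. Of the 5 ligands, Hbegf made up 61.5% to 79.4% in Zeb2 fl/fl and 78.0% to 85.6% in Zeb2 cKO libraries. Nrg1 held 26.8% of the ligand transcripts in Zeb2 fl/fl replicate 2 and 3.95% to 6.71% in the other libraries.

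**Figure D4:**
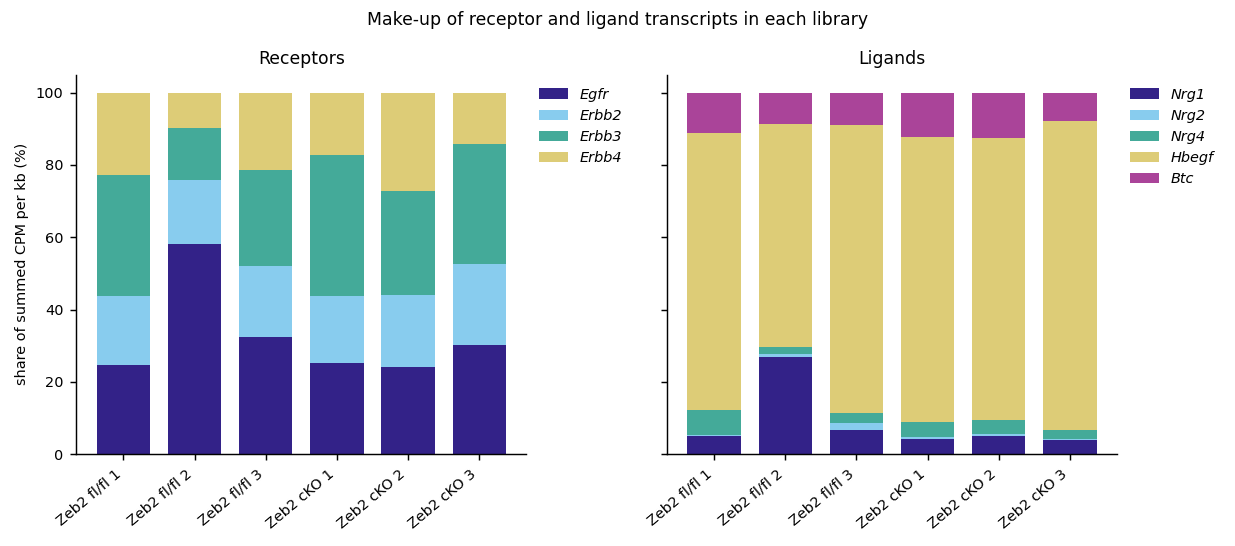
Stacked bars give the share of each receptor (left) and each ligand (right) in the summed CPM per kilobase of exon of that group in each of the 6 libraries. The Egfr and Nrg1 segments are largest in Zeb2 fl/fl replicate 2 (58.2% and 26.8%), and Hbegf is the largest ligand segment in all 6 libraries.

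To place the 9 genes in their pathway, 66 other genes were grouped by role, and 62 had enough counts to be tested (Areg, Epgn, Nrg3 and Grb7 did not). After adjustment 0 of the 62 had a p under 0.05 in edgeR, and 0 in DESeq2. At an unadjusted p under 0.05, 1 of the 62 passed in edgeR (1.9% of all genes), the ligand Egf, which was higher in Zeb2 cKO hearts. In DESeq2 3 passed (2.45% of all genes), Egf, Adam12 and Ereg. The median log2 fold change was -0.070, with 3 genes over 0.2 and 14 under -0.2 (15.9% and 22.6% of all genes). Without Zeb2 fl/fl replicate 2 it was -0.059, with 5 over 0.2 and 6 under -0.2 (14.2% and 11.7%).

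Egf, the founding ligand of Egfr, measured 4.33, 1.55 and 6.07 CPM in Zeb2 fl/fl (3.98 ± 2.28, SD, n = 3) and 20.3, 6.13 and 13.8 CPM in Zeb2 cKO hearts (13.4 ± 7.09). All Zeb2 cKO libraries lay above all controls, but the lowest of them, at 6.13 CPM, was next to the highest control, at 6.07 CPM. On the log2 scale the difference was 1.76 (standard error 0.58, unadjusted p = 0.0190, adjusted p = 0.957 from edgeR), and 1.37 without Zeb2 fl/fl replicate 2. Among the other ligands, Tgfa had a log2 fold change of 0.83 with overlapping groups, and Ereg of -1.63, with 163 counts in Zeb2 fl/fl replicate 2 and 12 to 49 in the other libraries, which became -0.12 without that library.

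Of the 9 proteases and their regulators, which release ErbB ligands from the cell surface, 6 had a log2 fold change under -0.2 and 0 over 0.2 (22.6% and 15.9% of all genes), with a median of -0.27. Without Zeb2 fl/fl replicate 2, 3 were under -0.2 and 0 over 0.2 (11.7% and 14.2%), with a median of -0.076. Adam12, a protease that cleaves Hbegf, had the smallest p of them (unadjusted p = 0.0553, adjusted p = 0.957 from edgeR) with a log2 fold change of -0.77, and of -0.36 without that library. In 2 of the 9, Adam17 and Adam19, all Zeb2 cKO libraries lay below all controls, as they did in 438 of the 14746 genes tested, and these were picked out after their values were seen. Adam17, the main sheddase of Egfr ligands, measured 29.6, 38.3 and 31.5 CPM in Zeb2 fl/fl and 27.5, 29.5 and 28.8 CPM in Zeb2 cKO hearts, and Adam19, which can cleave Nrg1, was at 35.1, 35.6 and 42.5 CPM and at 22.003, 33.9 and 34.1 CPM. Their log2 fold changes were -0.21 and -0.33, each at an adjusted p of 0.957 from edgeR, and without Zeb2 fl/fl replicate 2 they were -0.090 and -0.37.

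Genes that relay or restrain the signal were counted in the same way. Of 12 adaptors and phosphatases 0 were over 0.2 and 1 was under -0.2 (15.9% and 22.6% of all genes). The 1 was Gab2, a docking protein, with a log2 fold change of -0.37 and of -0.14 without Zeb2 fl/fl replicate 2. Of 20 genes of the PI3K-Akt and MAPK relay 1 was over 0.2 and 1 under -0.2 (15.9% and 22.6% of all genes). The gene of this role with the smallest p, the PI3K regulatory subunit gene Pik3r3, had a log2 fold change of 0.17, and of 0.086 without that library. Of 18 inhibitors and turnover genes 0 were over 0.2 and 5 were under -0.2 (15.9% and 22.6% of all genes), and without Zeb2 fl/fl replicate 2 these counts were 2 and 2 (14.2% and 11.7%). The smallest p was that of Lrig3, of a family of transmembrane ErbB regulators. Lrig3 was at 7.61 CPM in Zeb2 fl/fl replicate 2 and at 1.40 to 2.12 CPM in the other libraries, so that its log2 fold change of -0.97 was 0.24 without that library. The adjusted p of these 3 genes was 0.957 from edgeR.

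**Figure D5:**
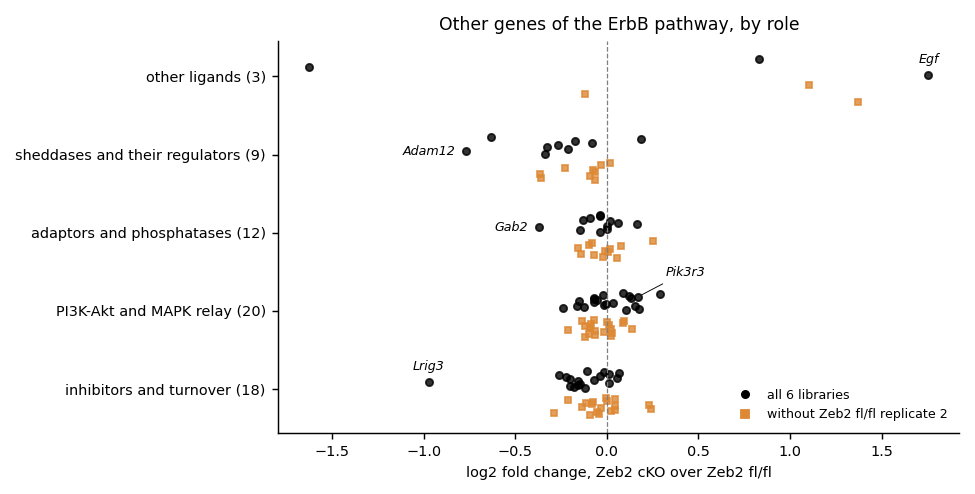
Log2 fold changes of Zeb2 cKO over Zeb2 fl/fl are plotted for the 62 tested pathway genes by role, with the number of genes in brackets, for all 6 libraries (black circles) and without Zeb2 fl/fl replicate 2 (orange squares), and the gene with the smallest p of each role is named. Egf lies farthest to the right at 1.76, and the proteases and their regulators move toward 0 without that library, from a median of -0.27 to -0.076.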

How the data were processed

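RNA of heart tissue from Zeb2 fl/fl (labelled WT, 3 libraries) and Zeb2 cKO mice (3 libraries) was depleted of ribosomal RNA and sequenced with a stranded kit as single-end 75-base reads. According to the methods, the authors used the STAR workflow to align reads and count them per Gencode M4 gene, and they deposited raw counts per gene, with no normalization. The STAR version, strand option and handling of reads with several matches are not given in the sources used here. The labels name build GRCm38 (mm10). All 6 columns were matched to samples, and 0 were left over.

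From the counts, TMM normalization, filterByExpr, glmQLFit and glmQLFTest of edgeR 4.0.16 (R 4.3.3) were run on all genes, with a prior count of 0.125 and Benjamini-Hochberg adjustment. DESeq2 1.42.0 was an alternative. Symbols and exon lengths came from Gencode M21, and near-identical stretches from BLAST 2.17.0. The steps were tested on simulated data. The precision is set by the spread between libraries rather than by 14301225 or more counts outside mitochondrial genes, except for genes of few counts. Nothing in the labels says that replicates are separate animals, so p-values measure the spread between these libraries.

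The members, gene lists and alternatives were chosen with earlier results of these data known. Named were the 9 members, Zeb2, the gene of each pathway role with the smallest p, the 3 genes most like the member with the smallest p, and markers at or near 0. Tgfa, Ereg, Adam17, Adam19, Timp3 and the markers Tek, Vwf, Emcn, Ttn, Myl2, Adipoq, Cidec, Cfd and Fabp4 were named after their values were seen. The values of most single genes of the marker lists are left out of the text, and the mesothelial and epicardial list is not described in it.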

Additional observations from a re-analysis of the deposited data

How the results depend on the processing

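Over 12 alternatives (2 other normalizations, no filter on low counts, DESeq2, no mitochondrially encoded genes, the replicate block and each library left out), 0 of the members tested and 0 of the other pathway genes had an adjusted p under 0.05, with 0 to 3 members and 0 to 5 pathway genes at an unadjusted p under 0.05. The members tested were 9 without the filter and 8, without Nrg2, in each other setting. The 3 members were reached without Zeb2 fl/fl replicate 1 (Nrg1, Egfr and Erbb3). That setting also had the most genes of the whole table at this threshold, 1134 of 15075, against 280 of 14746 in the main fit. Over all genes, the count of adjusted calls was 0 in each edgeR setting, beside 122 to 1134 genes at an unadjusted p under 0.05, and 2 with the DESeq2 Wald test, neither of them a gene of these lists. The members' adjusted p ran from 0.596 to 1.00 over these settings.

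The direction of 2 members changed when a library was left out, over a log2 fold change of -0.13 to 0.53 for Nrg4 and of -0.24 to 0.34 for Erbb4, and no other setting changed a direction. Without single libraries Nrg1 ran from -2.00 to -0.21, Egfr from -0.85 to -0.061, Erbb3 from 0.19 to 0.70, Hbegf from 0.062 to 0.52, Btc from 0.088 to 0.36 and Erbb2 from 0.049 to 0.16. Per length, 2 members (Nrg1 and Btc) changed rank with the longest transcript. The replicate numbers are shared between the genotypes, but the correlations of same-numbered libraries were 0.088, -0.14 and -0.087, so they were not taken as pairs. With the replicate block 0 genes were called, as without it, and the log2 fold change of Nrg1 was -1.01. The cause of these changes was not tested.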
